A study of Homo sapiens with 6 samples.

Results

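The chemokines, interleukins and their receptors are the genes by which cells send and read short-range inflammatory and growth signals. They were chosen here by name alone: every row of the deposited table whose symbol is that of a CXC, CC or CX3C chemokine, a CXC or CC chemokine receptor, an interleukin or an interleukin receptor chain, together with LIF, LIFR, IL6ST, OSMR, CSF1, CSF2, TSLP and CLCF1. This gave 71 of the 20851 listed genes, 38 ligands, 32 receptor chains and 1 receptor antagonist. Symbols had to match exactly, so rows with a suffix, such as IL27RA_1 and MIF_1, were not taken in. MIF, CSF3 and IL20RA were not analysed here as members. Of the 71 genes, 6 had at most 3 counts in every library and are only counted, and 49 had enough counts to be tested.

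RNA-seq was performed on A375, a human melanoma cell line. The 3 A375neg libraries came from the negative control subline, which carried a nontargeting guide RNA and is named as a GFP control in the sample labels, and the 3 A375RIPK4.KO libraries from RIPK4 knockout cells, both sublines being made with lentiviral CRISPR/Cas9 vectors. The knockout libraries were of clone #1, so the loss of RIPK4 and the traits of that clone cannot be told apart. The 3 replicates of a group were described by the submitters as biological replicates. The libraries held 21882863 to 26694140 counts over the listed genes.

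RIPK4, the gene targeted, had 319, 368 and 404 raw counts in A375neg and 42, 51 and 61 in A375RIPK4.KO, in accord with the labels. Counts of the melanoma list fixed for the cell line (10 of 14 genes listed) summed to 1660 to 1760 CPM (counts at equal library size) in A375neg and 1490 to 1560 in A375RIPK4.KO. MLANA, TYR, DCT and PRAME of this list were not listed. Of its 9 tested genes, 0 were called higher and 3 lower in A375RIPK4.KO, by the rule given below. Over all genes tested, these shares were 4.39% and 4.65%. SOX10, the melanocyte lineage factor, was high in both groups (mean normalized counts 9128 and 7962), while PMEL and TYRP1 had at most 22 counts in any library. The leukocyte list (9 of 14 genes listed) summed to 44.3 to 50.8 CPM and 48.7 to 52.1 CPM, nearly all of it CD68, and PTPRC, which marks all leukocytes, had at most 3 counts in a library. The list of fibroblast, endothelial and epithelial genes went from 23.2 to 26.5 CPM in A375neg to 7.36 to 8.55 CPM in A375RIPK4.KO, most of it KRT14, and its part in the results was not tested. A375RIPK4.KO replicate 2 stood apart from the other knockout libraries, with 20.5 and 24.6 in a chi-square statistic per gene against 6.88 between the remaining pair, and results that turn on it are given without it.

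Chemokines are small secreted proteins that draw cells along gradients through G protein-coupled receptors. Most interleukins act through paired receptor chains. Those of the IL-6 and IL-10 families and the common gamma chain receptors signal through JAK kinases and STAT factors, whereas IL-1 family receptors signal through MYD88 and IRAK kinases to NF-kB. Melanoma cells are known to secrete several of these factors, among them CXCL8, which was first studied as a neutrophil attractant, and CXCL1, named for its growth-stimulating activity on melanoma cells.

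A gene was called changed where its Benjamini-Hochberg adjusted p in edgeR's quasi-likelihood test was under 0.05 and its fold change at least 1.5 in either direction. Log2 fold changes are A375RIPK4.KO over A375neg, with their standard errors, and normalized counts are raw counts scaled to the mean library size with edgeR's TMM factors. Of the 49 tested members, 16 were called, 5 higher and 11 lower in A375RIPK4.KO. Over all 14443 genes tested, 9.04% were called changed, 4.39% higher and 4.65% lower. The median log2 fold change was -0.21 over the 49 members and 0.00 over all tested genes, and 33 members lay below 0. An adjusted p under 0.05, whatever the fold change, was reached by 22 members, and by 16.6% of all genes tested. The groups did not overlap in normalized counts for 31 members, against 36.5% of all genes tested, and for 28 members when counts were scaled by raw totals. Members that pass a filter on low counts through the group in which they are high are among these, so the shares describe the tested members and not all 71.

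Of 24 tested ligands, 3 were higher (CCL2, IL18 and IL32) and 8 lower (IL24, CXCL3, IL16, IL6, CXCL2, IL1B, LIF and IL1A), with a median log2 fold change of -0.40. Of 25 tested receptor chains, 2 were higher (IL6R and IL4R) and 3 lower (IL1RL1, IL17RD and IL1RAP), with a median of -0.05. Over all genes tested, 4.39% were called higher and 4.65% lower. The difference between ligands and receptors was not tested. The 22 members not tested had at most 20 raw counts in any library, and 18 of them had the higher mean CPM in A375neg and 4 in A375RIPK4.KO, a description of sparse counts with no test.

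**Figure D1:**
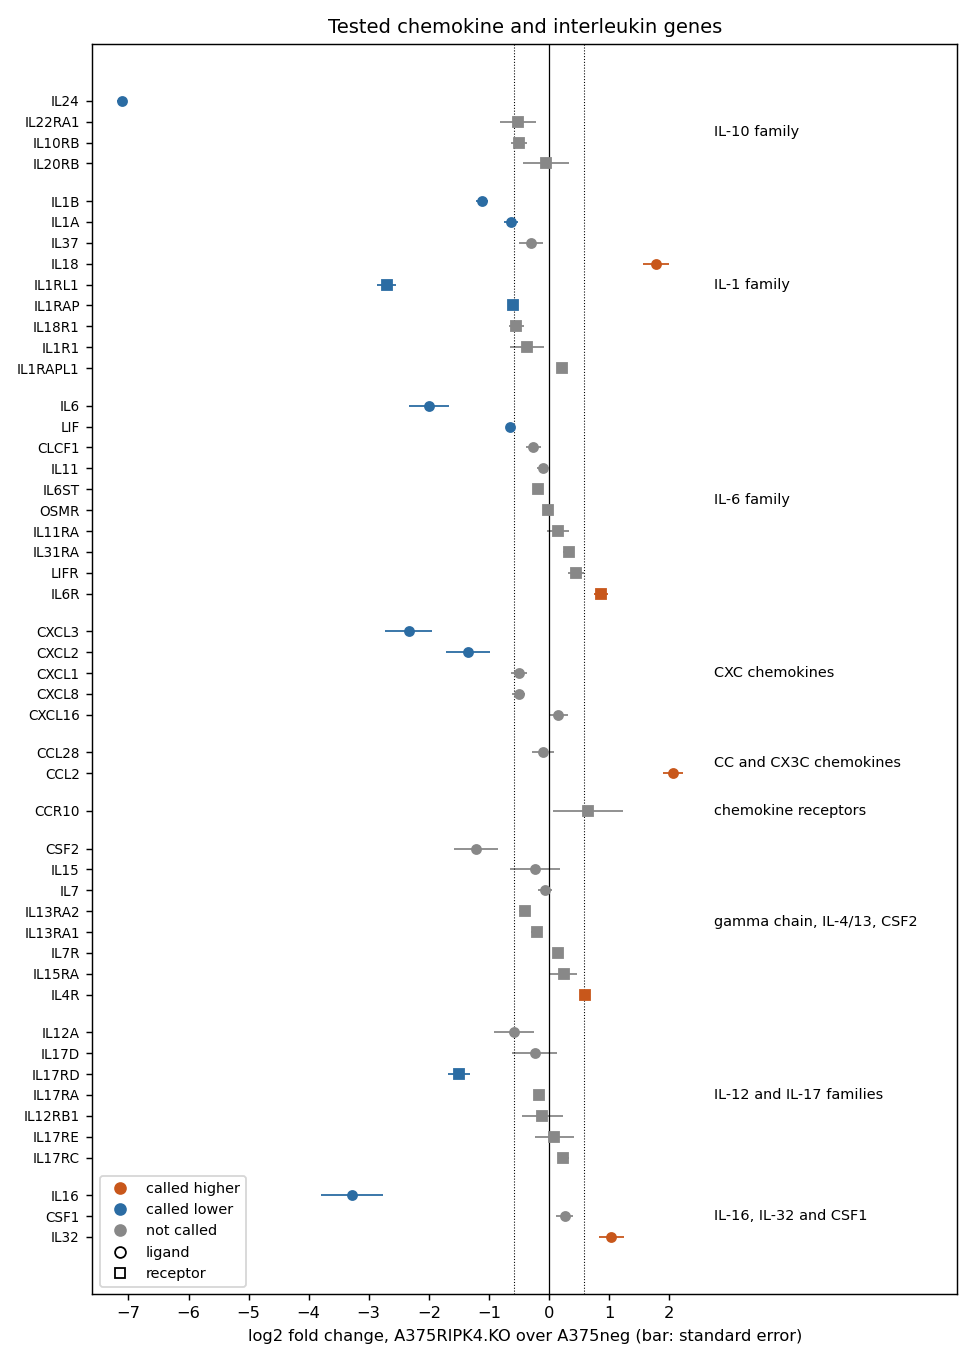
Log2 fold change of A375RIPK4.KO over A375neg for the 49 tested members (horizontal axis), grouped by family, with bars of 1 standard error; circles are ligands, squares receptors, and the dotted lines mark 1.5-fold. IL24 lies at -7.11, far to the left of every other member, and CCL2 at 2.07 is the highest.

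IL24 belongs to the IL-10 family and is a secreted cytokine first isolated from differentiating melanoma cells. It was the member with the largest difference. The gene lies at chr1:206897443-206904139 on the plus strand of GRCh38. Raw counts were 8076, 8380 and 8539 in A375neg and 52, 59 and 54 in A375RIPK4.KO. The groups were thus far apart, and the libraries within each group close together. Mean normalized counts were 7962.5 ± 210.7 (SD, n = 3) and 57.72 ± 3.50, a 138-fold difference (log2 fold change -7.11, SE 0.084, edgeR adjusted p = 3.05e-10). In these bulk samples, fewer cells with the transcript and less of it per cell cannot be told apart.

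IL24 had the lowest p of all 14443 genes tested and the 17th largest fold change in either direction. By mean normalized count it stood at place 493 of the 20851 listed genes in A375neg and at place 11412 in A375RIPK4.KO. With each library left out in turn, its log2 fold change stayed between -7.15 and -7.07. Per length, as RPKM (CPM per kilobase of exon), it was the most abundant ligand in A375neg, at 164 (159 to 167), above CXCL8 at 128 (111 to 144), and the 15th ligand in A375RIPK4.KO, at 1.19 (1.13 to 1.27).

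The start of IL24 is shown because it belongs to the member with the largest difference. The RefSeq window, 250 bases before to 50 after the transcription start (GRCh38.p14, chr1:206897193-206897492, plus strand), reads as follows, and none of the motifs searched below was in it, so no base is in capitals.
IL24: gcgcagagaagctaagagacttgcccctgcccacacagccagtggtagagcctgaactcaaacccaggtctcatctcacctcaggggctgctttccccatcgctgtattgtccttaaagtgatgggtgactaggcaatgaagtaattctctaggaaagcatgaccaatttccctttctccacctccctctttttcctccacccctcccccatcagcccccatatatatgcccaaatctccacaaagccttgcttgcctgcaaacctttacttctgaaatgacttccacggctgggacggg

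IL24 acts on receptors made of IL20RB with either IL20RA or IL22RA1. IL20RB had 48, 30 and 20 raw counts in A375neg and 33, 21 and 33 in A375RIPK4.KO. The groups overlapped, the log2 fold change was -0.05 (SE 0.39, adjusted p = 0.953), and its sign turned with the replicate block and without A375neg replicate 1 or A375RIPK4.KO replicate 2. IL22RA1 had 57, 87 and 94 against 33, 71 and 47 raw counts, which also overlapped (log2 fold change -0.52, SE 0.30, adjusted p = 0.292). IL10RB, the shared second chain of the IL-10 and IL-22 receptors, had 458, 503 and 422 against 318, 318 and 252. It passed the adjusted p without reaching 1.5-fold (log2 fold change -0.50, SE 0.13, adjusted p = 0.0336).

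IL24 stands in a row of IL-10 family genes, and of this row IL10 and IL19 were also listed, both with too few counts to be tested. IL19 had 20, 12 and 7 raw counts in A375neg and 1, 0 and 0 in A375RIPK4.KO, a ratio of 35.5 in CPM (exact binomial 95% interval 6.01 to 1440, which covers counting error only). It was called lower in all 6 of the alternative fits in which it could be tested, with an adjusted p of 0.00673 in DESeq2, where 4.17% of all genes were called lower, and of 0.0106 in edgeR with no filter on low counts, where 3.17% were. In fits with a library left out, it passed the filter only through its A375neg counts. It was not tested without A375neg replicate 1 or 2. The number of fits that called it is therefore no added support. The exon that the deposited table lists for IL19 lies within IL10 on the opposite strand, over 306 bases. The libraries were strand-specific, but the strand setting of the counting is not given in the sources used here. Reads of the pair may thus not be told apart. IL10, an anti-inflammatory cytokine, had 15, 18 and 6 against 1, 6 and 1 raw counts, and was called lower in 1 of 6 such fits, that without A375RIPK4.KO replicate 2.

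Within 500 kb on either side of IL24, 14 genes were listed and 12 tested. Besides IL24, C1orf116, a gene chosen for mention after its values were seen, was called lower (normalized counts 42.9 and 23.1, log2 fold change -0.89, SE 0.26, adjusted p = 0.0444), and in 3 of 12 alternatives, none of them with a library left out. FCMR, which lies next to IL24, had a log2 fold change of -0.54 (SE 0.28, adjusted p = 0.239). MAPKAPK2 lay at -0.36 (adjusted p = 0.00701) and CD55 at -0.55 (adjusted p = 2.94e-04), both short of 1.5-fold. EIF2D and DYRK3 were at -0.03 and 0.00.

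**Figure D2:**
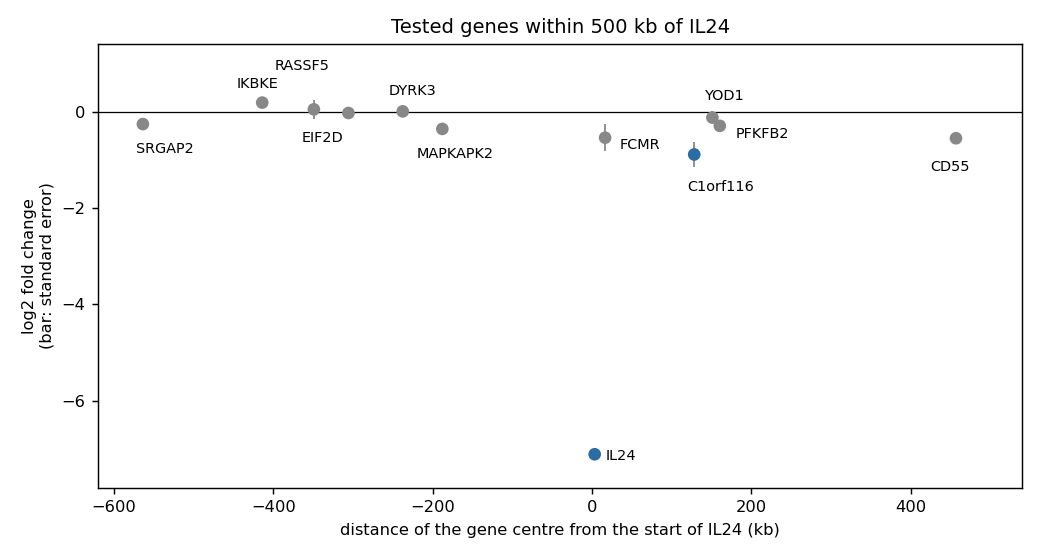
Log2 fold change with 1 standard error (vertical axis) of the 12 tested genes within 500 kb of IL24, by the distance of the gene centre from the start of IL24 in kb (horizontal axis); blue points were called lower and grey ones were not called. IL24 stands at -7.11, while the others lie between -0.89 and 0.18.

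In the IL-1 family, 12 members were listed and 9 tested. Of these 9, 1 was called higher and 4 lower, against 4.39% and 4.65% of all genes tested. IL1B and IL1A, the ligands of the IL-1 receptor, both fell. IL1B (chr2:112829751-112836903) had 520, 614 and 632 raw counts in A375neg and 245, 264 and 231 in A375RIPK4.KO, with no overlap (log2 fold change -1.11, SE 0.11, adjusted p = 1.30e-04). IL1A (chr2:112773915-112784590) had 2324, 2392 and 2743 against 1281, 1759 and 1339, a smaller difference (log2 fold change -0.63, SE 0.12, adjusted p = 0.00578). IL1A fell short of 1.5-fold without A375neg replicate 3 (-0.56), A375RIPK4.KO replicate 1 (-0.57) or A375RIPK4.KO replicate 3 (-0.55).

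IL18, a cytokine made as a precursor and cut by caspase-1, went the other way. It had 37, 49 and 31 raw counts in A375neg and 107, 130 and 129 in A375RIPK4.KO, 3.43-fold higher without overlap (log2 fold change 1.78, SE 0.22, adjusted p = 5.74e-04). IL37, an anti-inflammatory member of the family, was at -0.30 (SE 0.21, adjusted p = 0.376).

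Among the receptors of this family, IL1RL1, the receptor for IL-33, fell most. It had 555, 588 and 603 raw counts in A375neg and 81, 98 and 65 in A375RIPK4.KO, 6.50-fold lower (log2 fold change -2.70, SE 0.16, adjusted p = 8.27e-06). IL18R1, the ligand-binding chain of the IL-18 receptor, lies on the same strand of chromosome 2 and its annotated span overlaps that of IL1RL1 by 40509 bases in GENCODE, so reads of the shared part may not be assigned to either gene with certainty. IL18R1 had 326, 417 and 420 against 208, 244 and 275 raw counts (log2 fold change -0.54, SE 0.13, adjusted p = 0.0194), short of 1.5-fold. It reached 1.5-fold and was called lower without A375neg replicate 1 (-0.62) or A375RIPK4.KO replicate 3 (-0.61).

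IL1RAP, the accessory chain shared by the IL-1 and IL-33 receptors, had 815, 962 and 953 against 511, 512 and 615 raw counts. It was called lower at 1.52-fold (log2 fold change -0.60, SE 0.086, adjusted p = 0.00137). It dropped below 1.5-fold without A375neg replicate 2 (-0.58), A375neg replicate 3 (-0.57), A375RIPK4.KO replicate 1 (-0.58) or A375RIPK4.KO replicate 2 (-0.55), and with the gene length trend removed (-0.56). IL1R1, the signalling receptor for IL-1, was low and overlapped between groups (47, 61 and 46 against 31, 27 and 51 raw counts, adjusted p = 0.439), and IL1RAPL1, a member of the receptor family known from neurons, was at 0.22 (adjusted p = 0.0749). Of the 13 tested genes of the IL-1 receptor signal chain, 0 were called in edgeR, against 9.04% of all genes tested. MYD88, the adaptor of these receptors, and TAB3 passed the adjusted p with log2 fold changes of -0.37 and -0.28, and the median of the chain was -0.05.

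**Figure D3:**
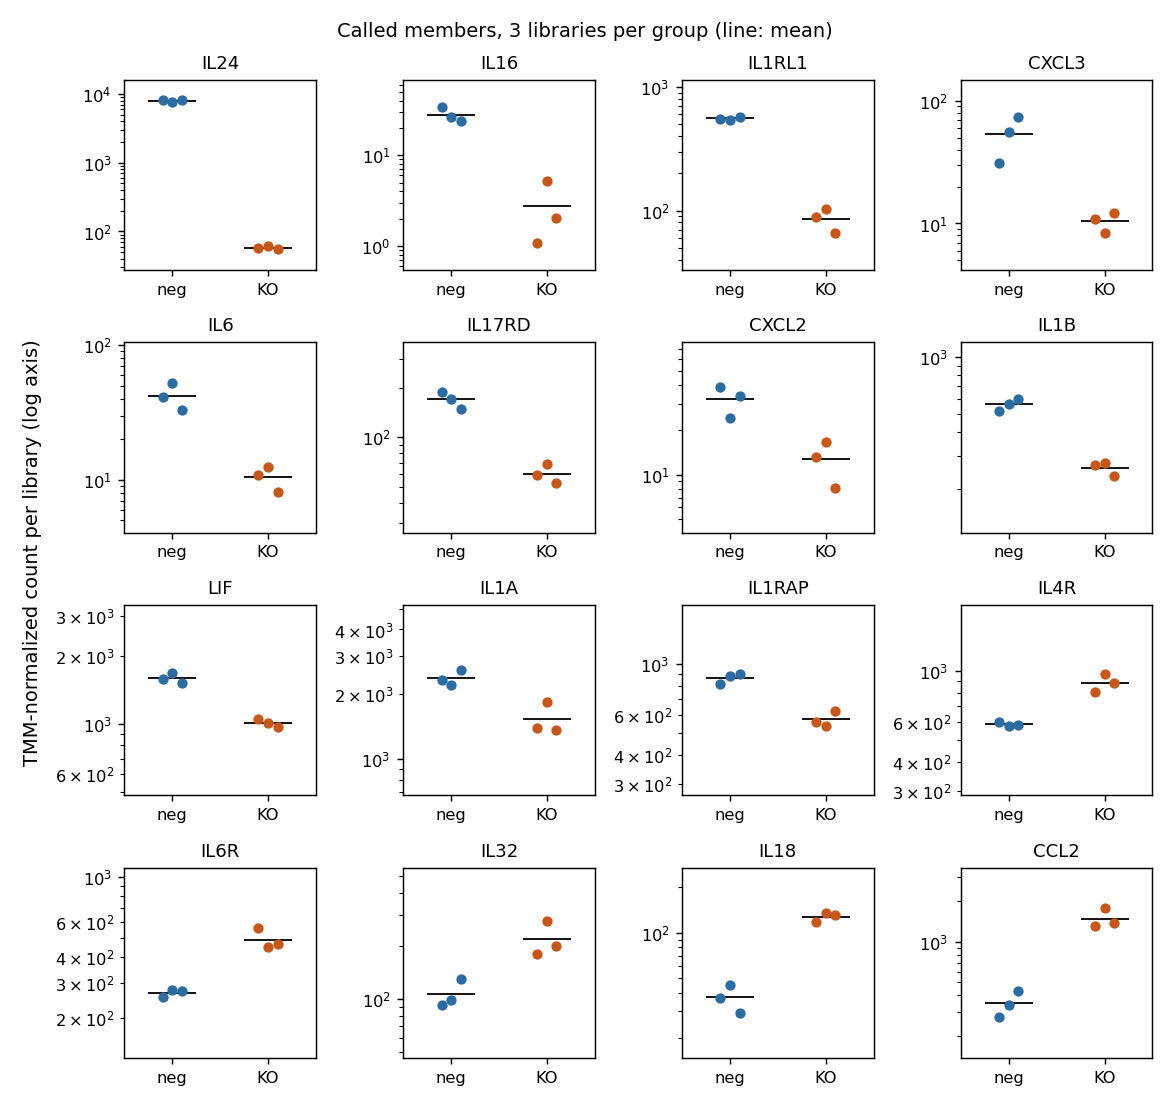
TMM-normalized counts in each of the 6 libraries (log axis, its range set per gene) for the 16 called members, ordered from the lowest to the highest log2 fold change; points are libraries and lines group means. In each of the 16 panels the A375neg and A375RIPK4.KO libraries do not overlap.

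In the IL-6 family, most of whose receptors share the chain IL6ST (gp130), all 10 listed members were tested. Of these, 1 was called higher and 2 lower, against 4.39% and 4.65% of all genes tested. IL6, the founding ligand, was at low counts, 41, 57 and 35 raw counts in A375neg and 10, 12 and 8 in A375RIPK4.KO. The groups did not overlap (log2 fold change -2.00, SE 0.33, adjusted p = 0.00344). The IL6 exon listed overlaps STEAP1B on the other strand by 370 bases. STEAP1B itself was at 0.02 (adjusted p = 0.886), with more counts than IL6.

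LIF, which keeps stem cells undifferentiated in culture and acts through LIFR and IL6ST, had 1570, 1818 and 1588 raw counts in A375neg and 962, 965 and 949 in A375RIPK4.KO. All A375RIPK4.KO libraries lay below all A375neg libraries (log2 fold change -0.65, SE 0.070, adjusted p = 2.56e-04). IL6R, the chain that binds IL-6 itself, rose from 255, 298 and 289 to 508, 429 and 457 raw counts (log2 fold change 0.87, SE 0.11, adjusted p = 8.24e-04). It overlaps IL6R-AS1 on the opposite strand, which had means of 0.939 and 3.51 normalized counts.

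The other members of the family were not called. LIFR was at 0.45 (SE 0.14, adjusted p = 0.0526) and IL31RA, the receptor for IL-31, at 0.33 (SE 0.089, adjusted p = 0.0360), under 1.5-fold. IL6ST was at -0.19 (adjusted p = 0.167), OSMR, the oncostatin M receptor, at -0.02 (adjusted p = 0.923), and IL11RA at 0.15 (adjusted p = 0.641). The ligands IL11 and CLCF1 were at -0.10 (adjusted p = 0.581) and -0.26 (adjusted p = 0.191). The sign of OSMR turned without A375neg replicate 1 (0.03) or A375RIPK4.KO replicate 2 (0.06), and that of IL11 was lost without A375RIPK4.KO replicate 1 (0.00).

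The JAK, STAT, SOCS and PIAS genes through which these receptors signal were counted from a fixed list. Of 21 tested, 0 were called higher and 1 lower, against 4.39% and 4.65% of all genes tested, with a median log2 fold change of 0.04. The gene called was STAT2, the interferon-linked STAT (540.2 ± 54.5 and 307.0 ± 74.2 normalized counts, SD, n = 3, log2 fold change -0.81, SE 0.17, edgeR adjusted p = 0.0113), whose call was lost without A375neg replicate 1.

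Among the chemokines, CCL2 rose and the CXC chemokines that were called fell. CCL2 (chr17:34255218-34257203), the main attractant of monocytes, had 277, 371 and 459 raw counts in A375neg and 1196, 1686 and 1341 in A375RIPK4.KO. It was the highest of all tested members by fold change, 4.20-fold up without overlap (log2 fold change 2.07, SE 0.17, adjusted p = 5.65e-05). Per length it passed from the 9th to the 3rd place among ligands, from 7.21 RPKM (5.68 to 8.93) to 30.3 (26.8 to 36.1). Its range in A375RIPK4.KO overlapped with those of CXCL1 (27.6 to 41.8) and IL1A (26.1 to 35.2). CCL28, a mucosal chemokine, was the other tested CC chemokine and was at -0.10 (SE 0.18, adjusted p = 0.761).

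Of the CXC chemokines, 5 were tested. Of these, 2 were called lower and 4 passed the adjusted p, against 4.65% and 16.6% of all genes tested. All 4 are neighbours in the cluster on chromosome 4 and neutrophil attractants. CXCL3 (chr4:74036589-74038807, minus strand) had 31, 60 and 78 raw counts in A375neg and 10, 8 and 12 in A375RIPK4.KO (log2 fold change -2.34, SE 0.39, adjusted p = 0.00337). CXCL2 (chr4:74097035-74099293, minus strand) had 39, 26 and 36 against 12, 16 and 8 (log2 fold change -1.35, SE 0.37, adjusted p = 0.0379). CXCL2 kept its call in 5 of 12 alternatives, and lost it with DESeq2 (adjusted p = 0.0616), with the replicate block (adjusted p = 0.0668) and without A375neg replicate 1 (adjusted p = 0.126), 2 (0.0585) or 3 (0.113) or A375RIPK4.KO replicate 1 (0.0797) or 3 (0.132). The transcripts of the pair share some sequence, and 5.26% of the 50-base stretches of CXCL3 also occur in CXCL2. Of the stretches of CXCL2, 4.62% occur in CXCL3 and 5.13% in the more abundant CXCL1. The paired reads were sequenced at a greater length than these stretches, so whether any read could be shared was not measured.

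The abundant chemokines of the cluster were not called. CXCL8 had 6192, 7904 and 8472 raw counts in A375neg and 4285, 5447 and 4729 in A375RIPK4.KO (log2 fold change -0.50, SE 0.11, adjusted p = 0.0119). CXCL1 had 1645, 1637 and 1546 against 952, 841 and 1312 (log2 fold change -0.51, SE 0.13, adjusted p = 0.0309). Both were lower in every A375RIPK4.KO library than in any A375neg library, at 1.42-fold. They reached 1.5-fold in 2 of 13 and 1 of 13 alternatives, CXCL8 without A375neg replicate 1 (-0.60) or A375RIPK4.KO replicate 2 (-0.59), CXCL1 without A375RIPK4.KO replicate 3 (-0.68). CXCL16, which lies elsewhere and is made as a membrane protein, was at 0.16 (adjusted p = 0.554).

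Few counts fell on the chemokine receptors listed. Of 4 chemokine receptors listed, 2 had at most 3 counts in every library and 1 was tested, CCR10, the receptor for CCL28 (3, 28 and 26 against 18, 34 and 29 raw counts, adjusted p = 0.507).

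The sequences before the starts of CXCL2, CXCL3 and IL6, which fell, and of IL32, which rose, are shown because each holds the kappa-B letters, which are GGG, any 2 bases and TTTCC (both strands searched), the core bound by NF-kB. RefSeq promoter windows were at hand for 55 of 71 members and 13 of 16 called members. The letters occurred in 5 of the 13 windows, those of CXCL2, CXCL3, IL6, IL32 and IL4R, in 8 of the 55, and in 1.92% of 27305 windows of the same 300 bases. Of the called members with the letters, 3 were lower and 2 higher. CXCL1 and IL1RAPL1, which were not called, hold them too. Their log2 fold changes were -0.51 and 0.22 (edgeR adjusted p = 0.0309 and 0.0749). CCL20, which was not tested, also holds the letters. It had 13, 9 and 5 raw counts in A375neg and 0, 5 and 2 in A375RIPK4.KO. Whether the letters bear on these differences was not tested. Capitals mark the kappa-B letters and, in IL32, the cAMP response letters TGACGTCA and, in CXCL2 and IL6, the C/EBP letters TTGCNNAA, read on either strand. The windows are on GRCh38.p14 at chr4:74099146-74099445 (CXCL2, minus strand), chr4:74038640-74038939 (CXCL3, minus strand), chr7:22726950-22727249 (IL6, plus strand) and chr16:3065153-3065452 (IL32, plus strand).
CXCL2: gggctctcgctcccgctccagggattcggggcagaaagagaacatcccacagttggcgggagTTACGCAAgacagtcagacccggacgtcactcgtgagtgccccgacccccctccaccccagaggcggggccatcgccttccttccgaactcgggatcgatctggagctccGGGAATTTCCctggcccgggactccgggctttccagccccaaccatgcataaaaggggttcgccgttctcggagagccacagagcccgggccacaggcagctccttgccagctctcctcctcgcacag
CXCL3: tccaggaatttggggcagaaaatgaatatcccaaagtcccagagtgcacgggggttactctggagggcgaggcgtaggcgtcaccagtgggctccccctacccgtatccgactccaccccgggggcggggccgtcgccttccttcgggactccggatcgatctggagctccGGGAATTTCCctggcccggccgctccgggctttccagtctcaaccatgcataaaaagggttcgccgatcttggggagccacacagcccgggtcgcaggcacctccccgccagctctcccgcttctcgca
IL6: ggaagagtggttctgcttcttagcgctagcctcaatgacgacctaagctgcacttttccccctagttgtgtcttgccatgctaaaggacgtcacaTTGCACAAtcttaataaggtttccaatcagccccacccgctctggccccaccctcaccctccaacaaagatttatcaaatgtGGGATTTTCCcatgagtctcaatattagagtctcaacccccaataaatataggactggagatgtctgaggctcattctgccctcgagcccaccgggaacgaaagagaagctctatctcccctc
IL32: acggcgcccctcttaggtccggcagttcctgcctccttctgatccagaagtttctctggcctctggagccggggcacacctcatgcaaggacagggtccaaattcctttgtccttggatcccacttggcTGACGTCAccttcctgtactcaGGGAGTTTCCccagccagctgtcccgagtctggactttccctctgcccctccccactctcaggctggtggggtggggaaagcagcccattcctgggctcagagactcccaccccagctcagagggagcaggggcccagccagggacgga

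The kappa-B match began 78 bases before the start of CXCL2, 79 before that of CXCL3, 73 before that of IL6 and 99 before that of IL32. AP-1 letters (TGACTCA) were in 2 of the 13 windows, those of IL1A and IL6R, and in 4.92% of all windows. The C/EBP letters were in 4 of 13 and 10.6%, the STAT letters TTCNNNGAA in 1 of 13 and 7.88%, the TATA box letters TATAAA in 1 of 13 and 12.0%, the cAMP response letters in 1 of 13 and 1.98%, and the E-box letters CACGTG in 0 of 13 and 7.43%. Such matches are letters in a window, and binding was not measured.

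Outside these families, IL16 and IL17RD fell and IL32 and IL4R rose. IL16, a chemoattractant for CD4+ cells cut from a larger precursor, had 34, 29 and 25 raw counts in A375neg and 1, 5 and 2 in A375RIPK4.KO (log2 fold change -3.27, SE 0.52, adjusted p = 0.00249). Without A375RIPK4.KO replicate 2, which had 5 of these counts, the log2 fold change was -4.05 (adjusted p = 0.00112). At these counts IL16 was the tested member with the 2nd lowest log2 fold change. It was also the least abundant of the called members per length, at 0.0948 RPKM in A375neg. Its span overlaps that of STARD5 on the opposite strand by 5006 bases, and STARD5 had 9.65 and 9.70 normalized counts.

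IL32, a proinflammatory cytokine found in human but not in mouse, had 92, 107 and 136 raw counts in A375neg and 164, 266 and 197 in A375RIPK4.KO (log2 fold change 1.04, SE 0.21, adjusted p = 0.00981). IL17RD, known as Sef, an inhibitor of FGF and MAPK signalling that is named for its likeness to IL-17 receptors, had 189, 186 and 158 against 54, 66 and 52 raw counts (log2 fold change -1.50, SE 0.19, adjusted p = 6.43e-04). It was the 1 member called among the 7 tested of the IL-12 and IL-17 families, against 9.04% of all genes tested. IL17RA, IL17RC and IL12RB1 did not pass the test (-0.16, 0.24 and -0.11).

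IL4R, the chain shared by the IL-4 and IL-13 receptors, had 600, 624 and 614 raw counts in A375neg and 741, 926 and 874 in A375RIPK4.KO. It was called higher at 1.52-fold (log2 fold change 0.60, SE 0.084, adjusted p = 0.00122), and fell short without A375RIPK4.KO replicate 2 (0.54). Its partner IL13RA1 was at -0.21 (adjusted p = 0.138). IL13RA2, a receptor that binds IL-13 and is regarded as a decoy, was the most abundant member per length in both groups, at 258 RPKM (240 to 279) in A375neg and 195 (179 to 220) in A375RIPK4.KO. It was lower by less than 1.5-fold (log2 fold change -0.40, SE 0.092, adjusted p = 0.0158). IL7R, the IL-7 receptor, was abundant and at 0.15 (adjusted p = 0.123).

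CSF2, which drives granulocyte and macrophage growth, had 25, 47 and 42 against 19, 15 and 10 raw counts. It narrowly missed the adjusted p (log2 fold change -1.22, SE 0.37, adjusted p = 0.0535) and was called lower in 4 of 12 alternatives, without A375neg replicate 1 or A375RIPK4.KO replicate 1, with the gene length trend removed and with protein-coding genes only. IL21R, at 8, 12 and 11 against 1, 3 and 0 raw counts, was not tested, and was called lower in 1 of 6 alternatives, that without A375RIPK4.KO replicate 2. Its ratio of A375neg over A375RIPK4.KO in CPM was 7.06 (exact binomial 95% interval 2.49 to 27.5).

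**Figure D4:**
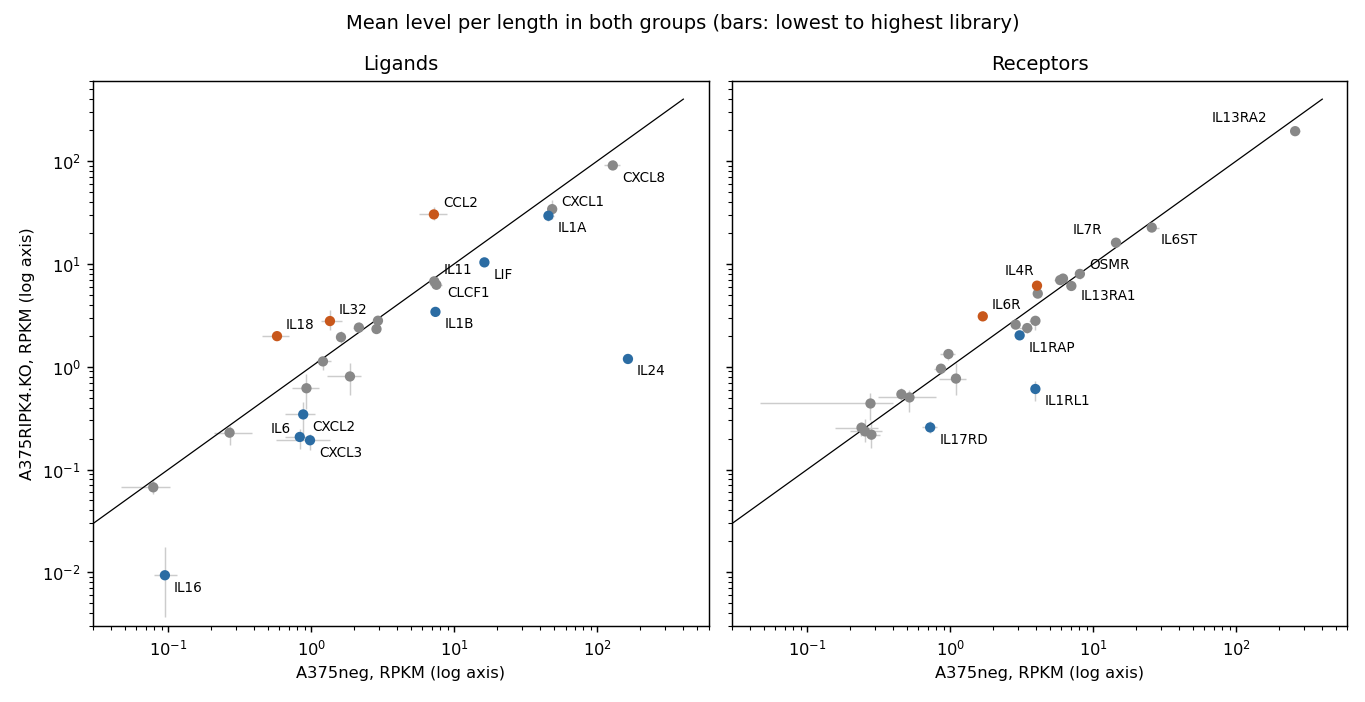
Mean RPKM of the tested ligands (left) and receptors (right) in A375neg (horizontal, log axis) and A375RIPK4.KO (vertical, log axis), with bars from the lowest to the highest library and a line of equal levels; orange points were called higher, blue lower, grey not called. IL24 falls from 164 to 1.19 RPKM. IL13RA2 is the highest receptor in both groups, and CXCL8 is the 2nd ligand in A375neg and the 1st in A375RIPK4.KO.

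In A375neg the order of levels per length was IL13RA2, IL24 and CXCL8, whose ranges did not overlap, then CXCL1 at 48.4 RPKM and IL1A at 45.6, whose ranges did. IL6ST (25.7), LIF (16.3), IL7R (14.4) and OSMR (8.07) followed without overlap, and from OSMR on the ranges of CLCF1, IL1B, IL11, CCL2 and IL13RA1 ran into each other. In A375RIPK4.KO the order was IL13RA2, CXCL8 at 90.6 RPKM (83.9 to 102), then CXCL1 at 34.1, CCL2 at 30.3 and IL1A at 29.4 with overlapping ranges, then IL6ST at 22.6.

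Ligands and receptors of the same families that the naming rule does not take in were counted from a fixed list. Of 6 tested, 0 were called higher and 1 lower, against 4.39% and 4.65% of all genes tested. The 1 called was CD74, the surface receptor for MIF and invariant chain of MHC class II. CD74 fell from 11987 ± 845.5 to 1706 ± 88.0 normalized counts (SD, n = 3, log2 fold change -2.81, SE 0.077, edgeR adjusted p = 9.91e-08). Without A375RIPK4.KO replicate 1, EBI3, a subunit of IL-27 and IL-35, was also called, as higher (log2 fold change 0.87, adjusted p = 0.0447). Of the rows left out for a suffix, IL27RA_1 was called lower (log2 fold change -1.485, SE 0.42, edgeR adjusted p = 0.0412), and in 8 of 12 alternatives. Its groups overlapped in normalized counts, with 133, 133 and 41 raw counts in A375neg and 29, 39 and 32 in A375RIPK4.KO. MIF_1 was not called (log2 fold change -0.34, edgeR adjusted p = 0.459).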

How the data were processed

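Per the labels, adapters were trimmed with cutadapt, reads checked with FastQC, aligned to GRCh38.p13 with HISAT2 and counted with HTSeq. Raw counts per gene were deposited by the authors as whole numbers. The signal columns of the same deposited table, counts divided by the authors by 1 size factor per library, were only checked (largest difference 0.0764). The authors' DESeq2 fold changes and p-values were not used.

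Raw counts of the 3 A375neg and 3 A375RIPK4.KO libraries were scaled by TMM factors, filtered with filterByExpr and compared by the quasi-likelihood test of edgeR 4.0.16 under R 4.3.3, with Benjamini-Hochberg adjusted p over 14443 genes. DESeq2 1.42.0, its size factors, other filters, a replicate block, a correction for gene length, protein-coding genes alone and each library left out were alternatives. Named members were those called changed, those with an adjusted p under 0.05 or called in an alternative only, the 10 most abundant by count or per length, IL24 and its receptors, and the IL-6 family. The members and lists were chosen with earlier results of these data known. The table lists 1 exon per gene, so RPKM used exon lengths of GENCODE v29 in place of the lengths planned, and gene positions are from GENCODE. Overlap of groups is a description, since the smallest two-sided exact permutation p with 3 against 3 is 0.1. The steps were tested on simulated counts. Python 3.11.15 with matplotlib 3.10.9 drew the figures.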

Additional observations from a re-analysis of the deposited data

How the results depend on the processing

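Of 410 log2 fold changes of the 32 named and tested members under the alternatives, 379 kept their direction and their side of the threshold, 16 lost the call, 9 gained one and 6 changed sign, and 21 members kept both throughout. The changes of sign were of IL20RB (0.01 with the replicate block, 0.38 without A375neg replicate 1, 0.15 without A375RIPK4.KO replicate 2, with a range of -0.31 to 0.38 over the libraries left out), OSMR (0.03 and 0.06 without the same libraries, range -0.08 to 0.06) and IL11 (0.00 without A375RIPK4.KO replicate 1, range -0.15 to 0.00). With a log2 fold change beyond 1.5 required, 7 members in place of 16 were called, 2 higher and 5 lower, against 3.22% of all genes tested. With a mean of at least 50 counts 7 were lower in place of 11, against 4.43% of the genes tested there, since fewer genes were tested. The cytokine receptor signal chain held 0 to 1 calls and the families outside the rule 1 to 2 with 1 library left out. The list of genes beside IL24 includes IL24 itself, which was its 1 call. The list held 2 calls with DESeq2 and with no filter on low counts, which let IL19 be tested. With a library left out it held 1 to 3. The cluster on chromosome 4 held 2 calls, 1 with DESeq2, 0 with a mean of at least 50 counts, 1 with the replicate block and 1 to 3 with a library left out, the 3 without A375RIPK4.KO replicate 2. The deviations of libraries with the same replicate number correlated at 0.0823, 0.0357 and -0.0119, so the numbers were not taken to pair the libraries, and the replicate block changed no call of a named member other than that of CXCL2. A length from the gene spans in the deposited table was not run, since the table gives 1 exon per gene. Low counts limit CXCL2, CXCL3, IL6, IL16 and IL19.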
